A study of Mus musculus with 2 samples.

Results

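The regions described here are the COUP-TFI peaks that lay deep inside genes of the embryonic mouse retina. A peak was counted when its centre fell within the body of at least 1 annotated gene, coding or non-coding, and farther than 5 kb from both ends of every annotated gene. The authors' peak caller kept 754 of 1283 candidate regions (58.8%), and 281 of these peaks met the rule (37.3%, 95% exact binomial interval 33.8 to 40.8). The other peaks were 224 with their centre within 5 kb of a gene end and 249 outside genes and farther than 5 kb from them. The rule used positions alone, so the tags and folds of the peaks were not part of the choice. Positions are given in build mm10 (GRCm38).

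The material was neural retina, dissected from wild-type mouse embryos of embryonic day E14.5 and fixed with paraformaldehyde before chromatin was prepared. The study sequenced 1 library made with an antibody to COUP-TFI and 1 input library made without antibody, and neither had a replicate. No group of the study carried a mutation or a treatment beyond this shared fixation. The ChIP library held 7371400 tags, and all peaks were low, with 10 to 21 tags each. Markers of the retina could not be checked, since a peak list does not measure which cells were present.

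COUP-TFI, encoded by Nr2f1, is an orphan nuclear receptor that binds direct repeats of the half-site AGGTCA and can repress or activate transcription. With its relative COUP-TFII it acts in the patterning of the eye and in the growth of the optic stalk and retina. Distal regulatory elements of developmental genes often lie in introns, far from the promoter, and nuclear receptors commonly bind such elements as well as promoters. Long genes in neurons tend to encode adhesion molecules, receptors, channels and guidance factors. Introns and exons could not be told apart here, because the gene table gives only the start and end of each gene.

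Sequence was at hand only where a peak met an annotated transcription start inside a gene, so the pair of peaks that did so is shown first. The windows run from 250 bases before to 50 after a start site, are written 5′ to 3′ on the strand of the gene, and are credited to RefSeq, GRCm38.p6. Capitals mark the bases that lie inside the peak.

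Phactr2: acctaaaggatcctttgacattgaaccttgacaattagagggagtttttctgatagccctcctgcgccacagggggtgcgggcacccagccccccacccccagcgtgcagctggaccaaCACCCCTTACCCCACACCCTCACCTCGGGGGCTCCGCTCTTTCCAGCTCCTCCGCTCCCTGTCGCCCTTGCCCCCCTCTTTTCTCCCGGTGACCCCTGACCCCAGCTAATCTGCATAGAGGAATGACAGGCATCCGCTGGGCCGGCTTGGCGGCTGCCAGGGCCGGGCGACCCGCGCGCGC

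Gm14206: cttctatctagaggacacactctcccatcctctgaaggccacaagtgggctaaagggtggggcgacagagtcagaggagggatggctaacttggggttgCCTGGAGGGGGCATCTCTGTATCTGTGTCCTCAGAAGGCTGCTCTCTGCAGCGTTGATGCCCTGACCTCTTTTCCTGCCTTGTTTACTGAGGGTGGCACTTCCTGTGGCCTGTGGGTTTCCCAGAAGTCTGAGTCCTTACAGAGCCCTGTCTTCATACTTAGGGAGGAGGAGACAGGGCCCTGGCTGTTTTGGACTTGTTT

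The first window (chr10:13324240-13324539, minus strand) belongs to an internal start of Phactr2, a gene for a phosphatase and actin regulator. The peak there (chr10:13324170-13324420) held 11 tags (95% exact Poisson interval 5.49 to 19.7), and its centre lay 6 bp from the start site and 96.7 kb from the nearest gene end. Of its window, 181 bases were shared with the peak, and G and C made up 65% of the 300 bases, against a median of 53% over all windows. The second window (chr11:100291375-100291674, minus strand) belongs to an internal start of the long non-coding RNA gene Gm14206. Its peak (chr11:100291325-100291575) also held 11 tags, with its centre 26 bp from the start site and 9.48 kb from the nearest gene end, and shared 201 bases with the window. G and C made up 55% of the Gm14206 window, near that median. The table placed 2279 of its 32619 start windows in deep gene sequence, and 2 of the 273 deep peaks on chromosomes with start windows overlapped one of them. Of these 273 peaks, 13 had a listed start site within 5 kb. The share of all deep sequence this close to a listed start was not computed, so the count is a description only.

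Both windows were searched on both strands for fixed letters. The half-site AGGTCA was found once in the Gm14206 window, as TGACCT, 89 bases upstream of the start site and within the peak, and 16.2% of all start windows hold it. It was not found in the Phactr2 window, and direct repeats of it, adjoining or spaced by 1 or 2 bases, were found in neither. The Phactr2 window held TGACCCCTGACCC, which on the other strand reads as a direct repeat of GGGTCA spaced by 1 base, beginning 42 bases upstream of the start site and within the peak. That motif was chosen after the sequence was seen. Of all 32619 start windows, 10 hold this repeat (0.0307%), and 13.8% hold GGGTCA, of which it is made. The window of Phactr2 also held CAGCTG once, outside the peak, a motif found in 16.4% of windows. The photoreceptor factor core TAATCC (7.04% of windows), the homeodomain core TAATTA (5.25%), the AP-1 site TGANTCA (7.85%) and the GC box GGGCGG (35.9%) were found in neither. A match is a description of the letters and not evidence of binding.

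The heights of deep peaks were close to those of the other peaks. Tags in the deep peaks ran from 10 to 18 with a median of 12, against 10 to 21 with a median of 12 near gene ends and 10 to 20 with a median of 12 far from genes. Of the 281 deep peaks, 100 held 10 tags, the caller's minimum, 35 held 11, 85 held 12 and 61 held 13 or more. The share with 12 or more tags was 52.0% (45.9 to 57.9) in deep peaks, 51.8% (45.0 to 58.5) near gene ends and 52.6% (46.2 to 58.9) far from genes, so the 3 intervals overlapped widely. All 3 classes were cut at the same minimum of 10 tags, and 258 of the 754 peaks held exactly 10. A difference in height between classes therefore had little room to show. Even tag numbers were more common than odd ones: of the deep peaks with 11 to 16 tags, 124 were even and 55 odd. The Poisson intervals of single peaks take tags as independent and take no account of the 10-tag minimum. They may therefore not hold at their stated level. All tags and folds of single peaks here are the authors' own, intervals cover counting error only, and no test between libraries was possible with 1 of each.

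**Figure D1:**
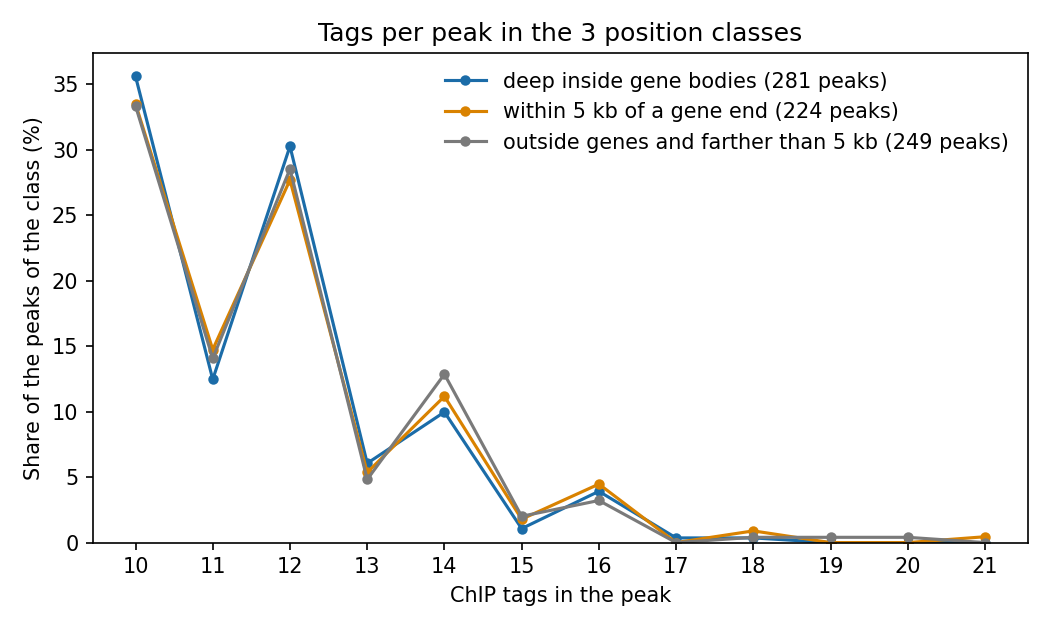
Share of the peaks of each class (y axis, %) by the number of ChIP tags in the peak (x axis), for the 281 deep peaks, the 224 near gene ends and the 249 far from genes. The 3 lines run together, with the most peaks at 10 and 12 tags and fewer at 11 and 13.

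Fold over input had the same median, 5.92, in all 3 classes, and in deep peaks ran from 4.07 to 9.69. Input was at the caller's lower bound of 1.9 scaled tags in 270 of the 281 deep peaks (96.1%), whose fold therefore followed the ChIP tags alone. The density of tags in the 10 kb around the peak differed more between the classes. It stood at its lowest value in 163 deep peaks (58.0%, 52.0 to 63.8) and in 56.7% (49.9 to 63.3) of the peaks near gene ends, against 74.7% (68.8 to 79.98) of those far from genes. The interval for peaks far from genes did not overlap the others. The median fold over this local density was 11.3 in deep peaks, 11.03 near gene ends and 11.9 far from genes.

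The deep peak with the most tags was that in Lrrc4c (chr2:96749037-96749287), whose product is a synaptic adhesion protein that binds netrin-G1. Its 18 tags (10.7 to 28.4) stood 9.69-fold above input. The next lay in Mrap2 (chr9:87169944-87170194), the gene of a melanocortin receptor accessory protein, with 17 tags (9.90 to 27.2), and it also had the highest fold over the local region, 18.4. These were followed by 11 peaks of 16 tags (9.15 to 26.0), each 8.61-fold over input.

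Neuronal genes were among these. Grid1 (chr14:34925684-34925934), of the delta family of glutamate receptors, had its peak 31.1 kb from the nearest gene end. The peak in Myt1l (chr12:29652836-29653086), which encodes a zinc finger factor of neurons, lay at 22.7 kb. The peak in Maml2 (chr9:13455414-13455664), a coactivator gene of Notch signalling, lay at 22.8 kb. Raly (chr2:154819226-154819476) encodes an RNA-binding protein, and Ahi1 (chr10:20990553-20990803) a protein of the ciliary transition zone. Peaks of 16 tags also lay in 4930590J08Rik (chr6:91933984-91934234) and in the non-coding gene Gm39256 (chr8:115616898-115617148). The peaks in Lsg1, Pard3 and Mroh2a had the same 16 tags and fold over input, and were set after the 10 named first by fold over the local region and then by position. The tag intervals of all these peaks overlapped, so their order is not resolved.

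Some peaks had more input or stood less clearly above their surroundings. Input exceeded that lower bound in 11 deep peaks, of which 10 had 2.6 scaled input tags and the Cpa4 peak (chr6:30576937-30577187) had 3.4, and their fold over input was 4.07 to 5.43. Those in Unc5b and Cntn1 were among them. Folds this low were not particular to these 11. Peaks of 10 tags with input at the lower bound, such as that in Pcdh15, stood 5.38-fold above input. Of the 281 deep peaks, 100 held 10 tags. The lowest folds over the local region, 4.32 and 4.72, belonged to a pair of peaks in the zinc finger gene Zfp978, of 12 tags at chr4:147236938-147237188 and of 14 tags at chr4:147239241-147239491. The deposited tag count of the second of these differed from the one its scaled tags give, as in 10 deep peaks in all. Zfp978 belongs to a family of similar zinc finger genes on chromosome 4, as do Zfp993 (14 tags, 2.6 scaled input tags) and Zfp984 (12 tags, 7.06-fold over the local region). The Zfp993 peak stood 15.13-fold above its local region. Whether reads of similar copies were misplaced in this family was not tested. The peak in Mroh2a, with 16 tags, was also low against its surroundings, at 4.93-fold.

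Peaks were set against the length of sequence in each position class. Assembly gaps and sequence to which reads cannot be assigned were not taken out of it. Their part in any rate per 100 Mb given here was not tested. Deep gene sequence made up 895.7 Mb and held 31.4 peaks per 100 Mb (95% exact Poisson interval 27.8 to 35.3). The sequence within 5 kb of gene ends held 36.9 per 100 Mb (32.2 to 42.1) and that far from genes 22.4 (19.7 to 25.4). The rate in deep sequence was thus 1.40 times that far from genes (95% exact interval of the ratio 1.17 to 1.66), while the intervals of deep sequence and of gene ends overlapped. The share of peaks whose local density was above its lowest value moved with these rates, and its part in them was not tested.

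Deep peaks lay a median of 20.2 kb from the nearest gene end, and 46 of them lay beyond 50 kb. The rate was 37.3 per 100 Mb (29.1 to 47.1) at 5 to 10 kb, 31.5 (24.5 to 39.9) at 10 to 20 kb and 37.1 (30.1 to 45.3) at 20 to 50 kb. It was 23.6 (16.03 to 33.5) at 50 to 100 kb, 13.7 (6.59 to 25.3) at 100 to 200 kb and, on 5 peaks, 18.9 (6.13 to 44.1) beyond 200 kb. The interval at 100 to 200 kb lay below those at 5 to 10 kb and 20 to 50 kb, and the other neighbouring bands were not resolved from each other. Outside genes the rates were 23.7, 29.9 and 25.3 per 100 Mb up to 50 kb and 12.1 and 10.8 beyond 100 kb, so low values far from any gene end were found both inside and outside genes. Median tags in the bands inside genes were 11 or 12.

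**Figure D2:**
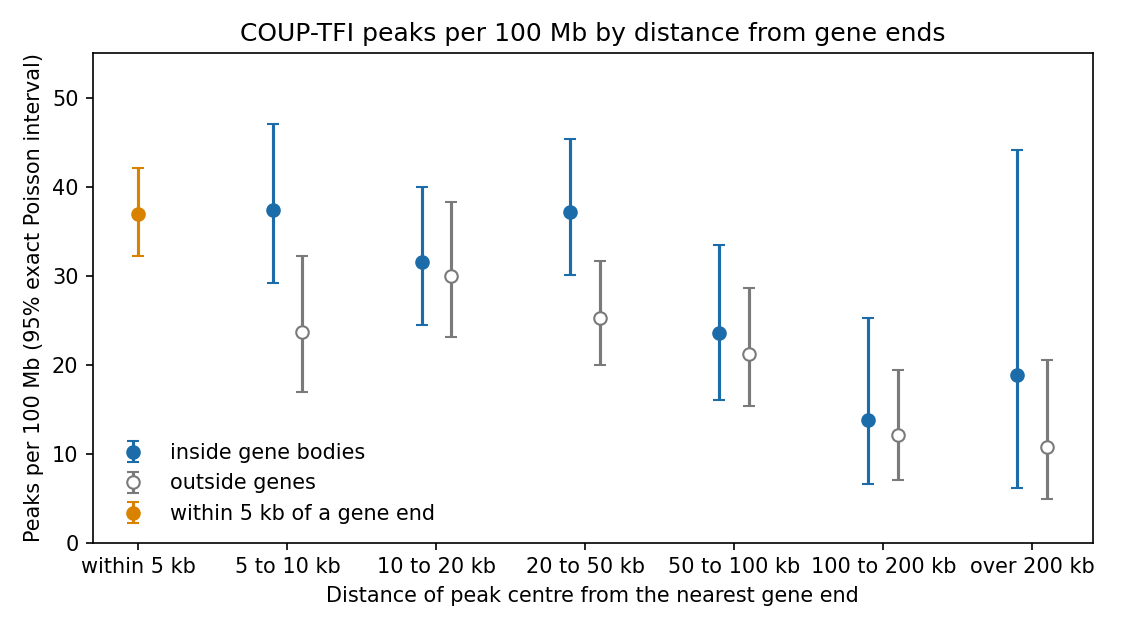
Peaks per 100 Mb (y axis) by distance of the peak centre from the nearest gene end (x axis), for peaks inside gene bodies, outside genes and within 5 kb of a gene end, and bars give 95% exact Poisson intervals. Inside genes the rate was 37.1 per 100 Mb at 20 to 50 kb and 13.7 at 100 to 200 kb.

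The 3 peaks farthest from any gene end lay in very long genes. Cntn4, an axonal adhesion gene of the contactin family, had its peak 424.6 kb from the nearest end (chr6:106275453-106275703, 12 tags). The Lrrc4c peak lay at 250.5 kb and that of Rbms3, an RNA-binding protein gene, at 225.8 kb (chr9:116833194-116833444, 11 tags). At the 5 kb limit, the nearest peaks inside it were those of Gm48106 (5001 bp, 14 tags), Mettl7a3 (5010 bp, 10 tags) and Senp8 (5033 bp, 10 tags). The in-gene peaks just outside it were in Slit3 (4993 bp, 12 tags), Tulp3 (4830 bp, 13 tags) and Rnf121 (4803 bp, 11 tags).

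The 281 deep peaks fell in 281 distinct genes, a coincidence of the counts, since 12 peaks lay in more than 1 gene and 12 genes held more than 1 peak. Of the genes, 229 were protein-coding, 45 were long non-coding RNA genes and 7 were pseudogenes or other kinds. In 239 peaks (85.1%) at least 1 host was protein-coding, and 42 lay in non-coding genes only. Of 19313 genes with any deep sequence, 281 held a deep peak, a background of 1.45%. That share was 1.7% of 13443 protein-coding genes, 0.858% of 5243 long non-coding RNA genes and 1.12% of 627 others. Per 100 Mb the rates were 30.6 (26.8 to 34.7), 38.2 (27.8 to 51.1) and 45.6 (18.3 to 93.9), with intervals that overlapped.

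Genes with a deep peak were long, as the rule favours: their median length was 114.9 kb, against 29.5 kb for all genes with deep sequence. The share of genes with a deep peak was 0.531% under 50 kb (71 of 13361), 1.77% at 50 to 100 kb (57 of 3212) and 3.77% at 100 to 200 kb (63 of 1671). It was 7.2% at 200 to 500 kb (60 of 833) and 12.7% over 500 kb (30 of 236). Per length of deep sequence, by contrast, the longest genes had the lowest rate. Genes under 50 kb held 43.9 peaks per 100 Mb (34.2 to 55.4), those of 50 to 100 kb 33.7 (25.5 to 43.6), those of 100 to 200 kb 34.5 (26.6 to 44.1) and those of 200 to 500 kb 30.4 (23.6 to 38.7), while those over 500 kb held 17.4 (11.9 to 24.6). The interval of the longest class lay below those of genes under 50 kb, of 50 to 100 kb and of 100 to 200 kb, and overlapped that of 200 to 500 kb. Genes under 500 kb together held 34.8 per 100 Mb (30.6 to 39.4). Deep sequence over 100 kb from any gene end lies only in long genes, so depth bands and length classes share sequence and peaks. Whether the lower rates went with length or with depth was not tested.

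**Figure D3:**
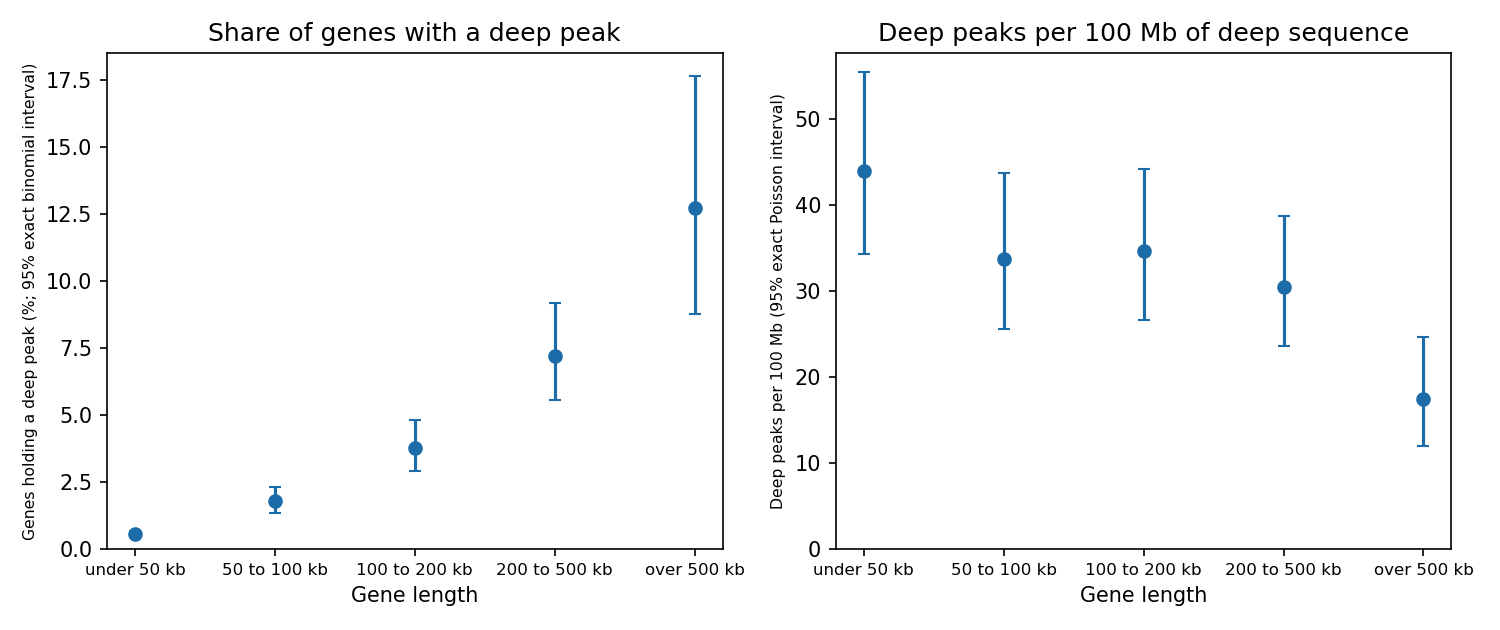
Left, share of genes with deep sequence that held a deep peak (y axis, %, 95% exact binomial intervals) by gene length (x axis), and right, deep peaks per 100 Mb of deep sequence (y axis, 95% exact Poisson intervals) in the same genes. The share ran from 0.531% to 12.7% with length, while the rate was 43.9 per 100 Mb under 50 kb and 17.4 over 500 kb.

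Of the 5 longest annotated genes, 1 held a deep peak: the immunoglobulin kappa locus Igk, with 10 tags (chr6:69907289-69907539), a locus built of many similar segments. The immunoglobulin heavy chain locus Igh, the dystrophin gene Dmd, the receptor phosphatase gene Ptprd and the neurexin-family gene Cntnap2 held none, over up to 2.295 Mb of deep sequence each. At the rate of all genes the 5 together would hold 2.76 peaks, so a shortage in them was not detectable.

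Of the genes with more than 1 deep peak, only the non-coding gene D030068K23Rik had 3, of 10, 12 and 12 tags (chr8:109139467-109139717, chr8:109217622-109217872 and chr8:109222955-109223205). The last 2 lay 5.33 kb apart and were shared with 4922502B01Rik, which overlaps it and so also counts. Close pairs were found in Zfp978 (2303 bp apart), in Galntl6, a glycosyltransferase-like gene (4.90 kb apart, 14 and 12 tags, chr8:57953340-57953590 and chr8:57958236-57958486), and in Prickle2, a planar cell polarity gene (7.45 kb apart, 10 and 12 tags, chr6:92477084-92477334 and chr6:92484530-92484780). In the other genes the peaks were 31.0 kb or more apart.

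Those were the nuclear receptor gene Rora (10 and 12 tags, 154.9 kb apart), the vesicle priming gene Cadps (12 and 10 tags, 53.0 kb) and the synaptic adhesion gene Lrfn2 (12 and 11 tags, 69.3 kb). The scaffold gene Dlg1 had 2 peaks of 10 tags 31.0 kb apart (chr16:31678632-31678882 and chr16:31709600-31709850). The exchange factor genes Dock9 (10 and 10 tags, 178.1 kb) and Spata13 (12 and 12 tags, 145.0 kb), which act on small GTPases, and the RNA-binding protein gene Pcbp3 (10 and 12 tags, 128.7 kb) made up the rest. The median distance from a deep peak to the nearest other peak of any class was 915.4 kb, and 8 deep peaks had another within 10 kb.

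Genes of neuronal and retinal groups were described from 11 lists, one of which names transcription factors of long genes and also holds RNA-binding proteins. The lists were chosen with earlier results of these data known, so their shares and intervals are descriptions only. Over all lists, 31 of 436 genes with deep sequence held a deep peak (7.11%, 4.88 to 9.94). The background of all genes was 1.45%, but the listed genes were long, with a median of 241.2 kb, and among all genes of 200 to 500 kb the share was 7.2%. Per 100 Mb they held 22.2 peaks (15.2 to 31.1), against 31.4 for all genes. Genes of 200 to 500 kb held 30.4 (23.6 to 38.7) and those over 500 kb 17.4 (11.9 to 24.6). The interval of the listed genes overlapped both. The listed genes were set beside the 200 to 500 kb class by median length alone. A share near that of genes of like length is not a result about the lists.

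**Figure D4:**
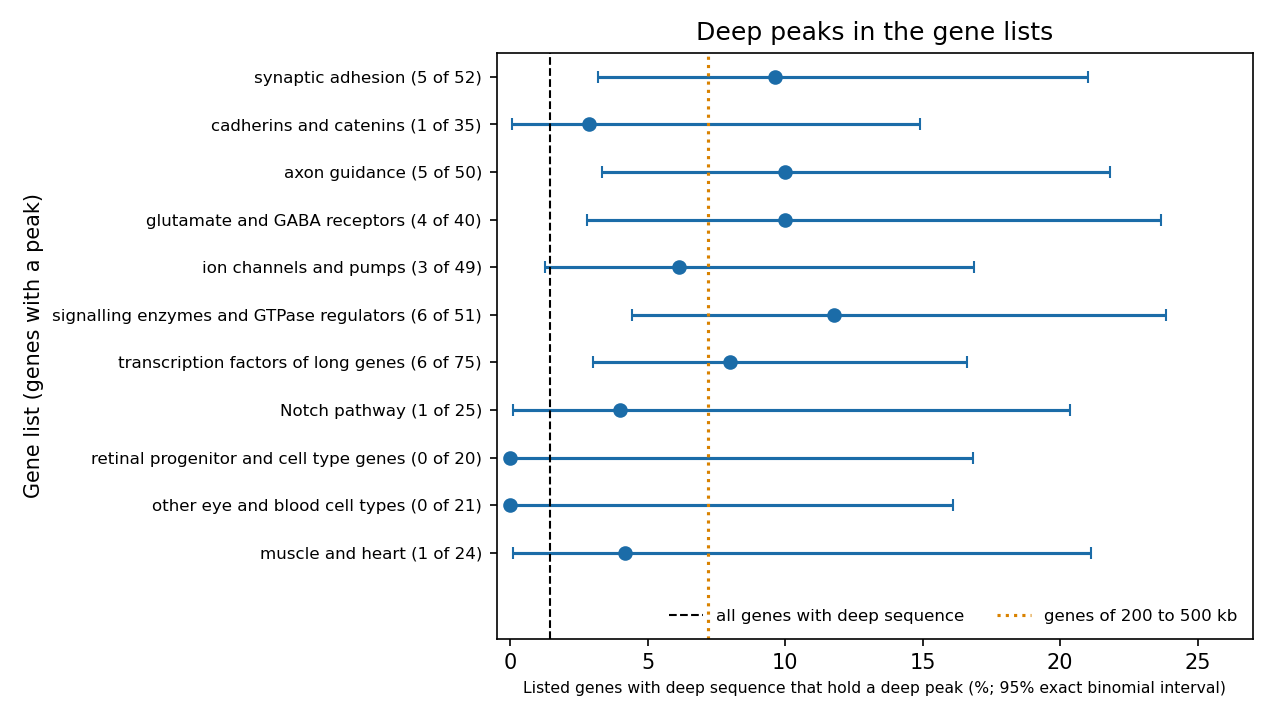
Share of the genes of each list with deep sequence that held a deep peak (x axis, %, with 95% exact binomial intervals), with lists on the y axis. The dashed line is the share over all genes (1.45%) and the dotted line that over genes of 200 to 500 kb (7.2%). The interval of each list includes the dotted line. Median gene length ran from 28.6 kb (retinal progenitor and cell type genes) to 489.3 kb (synaptic adhesion). The dotted line is therefore not the share of genes of like length for every list.

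Synaptic adhesion genes held a deep peak in 5 of 52 (9.62%), at 15.5 per 100 Mb (5.03 to 36.2). Beside Lrrc4c and Cntn4 these were Nlgn1, which encodes a postsynaptic neuroligin (chr3:26122567-26122817), Sdk2, a gene of layer-specific adhesion in the retina (chr11:113887546-113887796), and Cntn1 (chr15:92099334-92099584), each with 12 tags. The Cntn1 peak had 2.6 scaled input tags and a fold over input of 4.65. The very long genes Ptprd and Cntnap2 of this list held none.

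Axon guidance genes held one in 5 of 50 (10.0%), at 36.8 per 100 Mb (11.96 to 86.0). Efna5 (chr17:62818966-62819216) and Ephb2 (chr4:136765266-136765516) encode an ephrin and an Eph receptor of retinal axon mapping. Draxin (chr4:148108708-148108958) encodes a secreted axon repellent and Unc5b (chr10:60792900-60793150) a netrin receptor. Each of the 4 held 12 tags, with 2.6 scaled input tags in Unc5b and 1.9 in the others. Srgap2 (chr1:131488401-131488651), a Rac regulator gene of neuronal shape, held 10.

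Among glutamate and GABA receptors and their scaffolds 4 of 40 genes held a peak (10.0%), at 28.8 per 100 Mb (9.35 to 67.2). Grid1 and Dlg1 were among them. With peaks of 12 or more tags, 2 genes of this list were left (5%). Ion channels and pumps had 3 of 49 (6.12%), at 17.4 per 100 Mb (3.59 to 50.9). These were Itpr1, the gene of an intracellular calcium release channel, Trpc4 with 12 tags (chr3:54287765-54288015) and Atp2b3. The Itpr1 peak held 14 tags (chr6:108527229-108527479) and lay where the non-coding gene Gm44040 overlaps Itpr1. The Itpr1 and Atp2b3 peaks lay 8.33 and 5.90 kb from a gene end, and with a limit of 10 kb 1 gene of this list was left (2.04%). Cadherins and catenins had 1 of 35 (2.86%), at 7.42 per 100 Mb (0.188 to 41.3). It was the photoreceptor and hair cell protocadherin gene Pcdh15, with 10 tags (chr10:73824936-73825186).

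Signalling enzymes and GTPase regulators held a peak in 6 of 51 (11.8%), at 23.4 per 100 Mb (8.59 to 51.0). Prkce, a protein kinase C gene, had 14 tags (chr17:86541006-86541256). The phospholipase gene Plcb4 (chr2:135969499-135969749) and the GTPase regulator gene Arhgap26 (chr18:39064684-39064934) had 12 each. Camk1d (chr2:5522339-5522589), a calcium-dependent kinase gene, and Erbb4 (chr1:69055736-69055986), a neuregulin receptor gene, had 10 each.

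Regulators of transcription and RNA held a peak in 6 of 75 genes (8%), at 33.1 per 100 Mb (13.3 to 68.3). Beside Myt1l and Maml2, Rora had its peaks at chr9:69358455-69358705 and chr9:69203526-69203776. The first lay where the non-coding gene Gm15511 overlaps Rora, 5.67 kb from an end, and the second stood 7.19-fold above its surroundings. The RNA-binding protein genes Rbfox3, expressed in neurons (chr11:118870817-118871067), and Msi2 (chr11:88551466-88551716) held 12 and 10 tags. Sox5, a SoxD factor gene (chr6:144752981-144753231), held 11.

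Of the Notch pathway, 1 of 25 genes with deep sequence held a deep peak (4.00%), which was Maml2, at 62.6 per 100 Mb (1.58 to 348.6). With protein-coding genes only, the count was 3 genes (11.5%), and with a limit of 2 kb it was 2 (6.67%). Notch2, Mib1 and Maml3 had peaks inside the gene but within 5 kb of an annotated end, as did 4 other listed genes, Zfhx3, Slit3, Ptprf and Crybb2. Retinal progenitor and cell type genes had none in 20, and genes of lens, pigment epithelium, periocular mesenchyme, vessels and blood none in 21. These genes are short and offered 1.35 and 0.944 Mb of deep sequence, in which 0.423 and 0.296 peaks would lie at the rate of all genes, so a shortage was not detectable. Muscle and heart genes, kept for comparison, had 1 of 24 (4.17%), Ryr1, with 10 tags (chr7:29050145-29050395). Their median length was 91.7 kb, against 489.3 kb for synaptic adhesion genes, so the shares of genes are not on a like footing. Per 100 Mb muscle and heart genes held 16.3 (0.412 to 90.6), beside 15.5 for synaptic adhesion. That interval overlapped those of all other lists. Nr2f1 itself is 9.90 kb long and has no deep sequence, so that it could hold no deep peak.

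Deep peaks were thinly spread over the X chromosome. It held 3 of them in 40.2 Mb of deep sequence, or 7.46 per 100 Mb (1.54 to 21.8), against 32.5 (28.8 to 36.5) over the 19 autosomes. The peaks near gene ends and far from genes were also few there, with 3 each, at 9.77 and 3.01 per 100 Mb. The sex of the embryos was not used here, and its part in these rates was not tested. Atp2b3, a plasma membrane calcium pump gene (chrX:73508527-73508777), and Reps2, a gene of endocytosis (chrX:162447558-162447808), held 12 tags each, and Lhfpl1 (chrX:145333346-145333596) held 10. Among the autosomes the rate ran from 17.9 on chromosome 5 (8.60 to 33.0) to 52.3 on chromosome 17 (29.9 to 84.9), and the interval of each of the 19 included the value of all autosomes together.

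**Figure D5:**
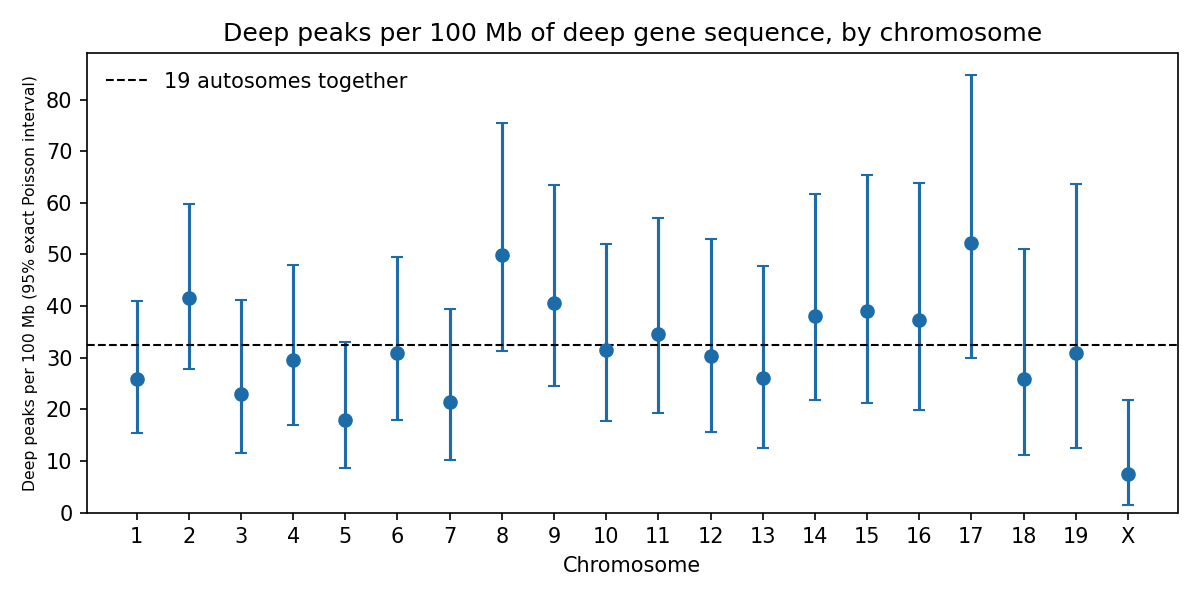
Deep peaks per 100 Mb of deep gene sequence (y axis, with 95% exact Poisson intervals) by chromosome (x axis), where the dashed line is the rate over the 19 autosomes, 32.5. The X chromosome, at 7.46, is the only one whose interval lies below the line.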

How the data were processed

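The authors deposited 1 peak list, made per the file headers with HOMER findPeaks in its factor mode from 1 ChIP and 1 input tag directory: 251 bp peaks, at most 1 tag per position, a false discovery rate of 0.001 that set a minimum of 10 tags, and at least 4-fold over input and over the surrounding 10 kb. Of 1283 candidate regions 754 were kept (58.8%). FastQC, Bowtie2 2.3.1, HOMER 4.2 and build mm10 are named in the submitters' processing notes. Tags per peak were deposited as counts. The deposited signal values are ChIP tags scaled to 10000000 and input tags brought to ChIP depth, never below 1.9. The fold ratios, Poisson p-values, focus ratio (a fraction) and caller score are the authors' own, and the score, focus ratio and p-values were not used for any result.

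Genes came from a RefSeq table of GRCm38.p6, of which 49554 of 49997 genes lie on chromosomes 1 to 19 and X, and 443 were left out. The sequence of each class was measured between the first and the last gene of each chromosome, and its rates are peaks per 100 Mb of it. The placement of peaks and the intervals were tested on simulated data. Local density counted as lowest within 0.1% of the minimum. Intervals are 95% exact binomial (Clopper-Pearson) or Poisson, with SciPy 1.17.1, and take peaks as independent. No p-value was computed. The strand of the host gene was known for 223 of 281 deep peaks (79.4%), under the 80% required, so position along the gene was not described. Of the 58 deep peaks without a strand, 8 lie on chromosome 18, whose start windows were not used here.

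The members, lists and rules were chosen with earlier results of these data known. Named were the 10 deep peaks with the most tags, genes with 2 or more deep peaks, up to 6 genes with a peak per list, the 3 farthest from gene ends, those at the 5 kb limit, the 5 longest genes, deep peaks on X and Nr2f1. Phactr2, Gm14206, Mroh2a, Cpa4, Zfp984, Zfp993, Lsg1, Pard3 and the 7 listed genes with a peak only near a gene end were named after their values were seen. Some genes that the rule names are not reported here. Alternatives changed the distance limit, the gene set and the peaks used.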

Additional observations from a re-analysis of the deposited data

How the results depend on the processing

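With a limit of 2 kb, 44.0% of all peaks were deep and 1.24% of genes held one, and with 10 kb these were 27.9% and 1.68%, as the limit itself decides which peaks and genes count. With protein-coding genes only, 1.91% of genes held a deep peak. Peaks of 12 or more tags lowered the rate to 16.3 per 100 Mb, to 8.70 in genes over 500 kb and 18.2 in those under 500 kb, the genes with a deep peak to 0.756% and the genes with 2 or more to 5, with fewer peaks counted. The ratio of the deep rate to that far from genes stayed between 1.28 and 1.44 in all 6 alternatives; this ratio and the split at 500 kb were added after the data were seen. Of 60 main values under alternatives, 50 lay within the interval or, for counts of genes and the median fold, within 1.5 times or the quartiles, and of 66 list values 64, the exceptions being cadherins and muscle genes, at 0% with peaks of 12 or more tags. List intervals are wide, and the shares of ion channels, glutamate and GABA receptors and Notch genes moved by over 1.5 times within them. The share of 12 or more tags has no value among peaks chosen for it, and the motif alternative was not run, since no genome was used here. No paired analysis was possible because there is 1 ChIP and 1 input library. Counts of 10 to 18 tags per peak limit what single peaks show.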
